A study of Mus musculus with 8 samples.

Results

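The small proline-rich (SPRR) protein genes were described here in the mouse uterus at gestation day (GD) 3.5, in 10 genes of the 24963 in the table: Sprr1a, Sprr2a1, Sprr2a2, Sprr2a3, Sprr2b, Sprr2d, Sprr2e, Sprr2f, Sprr2g and Sprr2h. They were picked by symbol as 1 gene family. Of the 10, 7 were above 0 in at least 1 library, 6 had a mean of at least 0.5 FPKM and were tested, and 3 were at 0 in all 8 libraries. FPKM are fragments divided by gene length and by the library total, so levels of different genes were compared per length.

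Whole uteri came from 4 Nr2f2 f/f females, which carry the floxed Nr2f2 allele without Cre, and 4 Nr2f2 d/d females (Pgr Cre/+; Nr2f2 f/f), in which Cre from the Pgr locus deletes Nr2f2 in cells that express the progesterone receptor. All were C57B6/J mice mated at 8 weeks of age to vasectomized males, so the uteri held no embryo. Nr2f2 d/d females also carry 1 Cre knock-in allele of Pgr that Nr2f2 f/f females lack, and Cre is not made in cells that do not express Pgr. Each mouse gave 1 library, and the comparison asks how the loss of uterine Nr2f2 changes mRNA levels around the time of receptivity.

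SPRR proteins are building blocks of the cornified envelope, the protein shell under the membrane of squamous epithelial cells, where transglutaminases cross-link them to loricrin, involucrin and other partners. Their genes lie together in the epidermal differentiation complex, a cluster on mouse chromosome 3 that also holds the S100 and late cornified envelope genes. Simple epithelia use some of them too, and in the mouse uterus several Sprr2 genes are known to be induced by estrogen in the epithelium.

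Nr2f2, the nuclear receptor COUP-TFII that the model removes, was at 25.3, 21.8, 25.7 and 23.5 FPKM in Nr2f2 f/f replicates 1 to 4 and at 9.66, 9.42, 6.90 and 9.74 FPKM in Nr2f2 d/d replicates 1 to 4. All Nr2f2 d/d libraries were below all Nr2f2 f/f libraries, and the difference was -1.39 on the log2 scale (adjusted p = 0.00549, limma). Library totals recovered from the table were 61550000 to 77900000 fragments in Nr2f2 f/f and 61750000 to 92800000 in Nr2f2 d/d. The library of Nr2f2 f/f replicate 2 stood apart, with a highest correlation to any other library of 0.959 against 0.976 to 0.989 for the other 7.

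In the mm10 genome the members run from Sprr2a1 at chr3:92215799-92221911 to Sprr1a at chr3:92483952-92485895, and Sprr1a lies on the minus strand whereas the Sprr2 genes lie on the plus strand (GENCODE release 21 of the mouse annotation). Sprr2f, the member with the highest mean level, spans chr3:92365187-92366442 with 2 exons. Sprr2g follows it at chr3:92373915-92375229 and is annotated as a polymorphic pseudogene, one that is intact in some strains only. The stretches before the start are shown for Sprr2f, for its relative Sprr2e, for Sprr2h, which had no fragment in any library, and for Sprr1a, of the other branch of the family. They are RefSeq promoter bases of GRCm38.p6, which is mm10, on the strand of the gene and cut before the first annotated exon base. Capitals mark the AP-1 site TGANTCA, bound by Jun and Fos proteins, and the TATA box TATAAA. The coordinates are chr3:92364937-92365186 (Sprr2f), chr3:92351893-92352142 (Sprr2e), chr3:92385435-92385684 (Sprr2h) and chr3:92485896-92486131 (Sprr1a, minus strand).
Sprr2f: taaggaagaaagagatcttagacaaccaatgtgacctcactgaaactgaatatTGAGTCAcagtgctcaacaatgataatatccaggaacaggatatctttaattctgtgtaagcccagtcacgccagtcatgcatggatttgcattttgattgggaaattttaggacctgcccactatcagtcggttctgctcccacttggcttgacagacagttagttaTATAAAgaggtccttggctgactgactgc
Sprr2e: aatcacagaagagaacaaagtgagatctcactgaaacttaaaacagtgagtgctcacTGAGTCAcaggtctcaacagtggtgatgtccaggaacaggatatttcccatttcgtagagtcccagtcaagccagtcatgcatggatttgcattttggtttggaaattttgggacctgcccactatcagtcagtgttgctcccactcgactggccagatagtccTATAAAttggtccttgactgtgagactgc
Sprr2h: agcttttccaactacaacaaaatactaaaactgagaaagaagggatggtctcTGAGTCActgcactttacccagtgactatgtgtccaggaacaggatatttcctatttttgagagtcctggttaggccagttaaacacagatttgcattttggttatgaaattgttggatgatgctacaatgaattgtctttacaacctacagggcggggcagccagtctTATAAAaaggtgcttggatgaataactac
Sprr1a: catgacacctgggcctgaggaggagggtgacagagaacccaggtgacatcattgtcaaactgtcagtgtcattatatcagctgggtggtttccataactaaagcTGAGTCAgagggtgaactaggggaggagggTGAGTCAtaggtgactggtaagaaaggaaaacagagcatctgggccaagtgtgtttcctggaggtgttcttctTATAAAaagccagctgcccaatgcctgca

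RefSeq windows of 300 bases, 250 before and 50 after the start, were at hand for 9 of the 10 members, all but Sprr2g. An AP-1 match stood in 6 of these 9 windows, against 7.8% of all 32851 windows of the genome, both strands searched. In Sprr2b, Sprr2d, Sprr2e, Sprr2f and Sprr2h the match lay within 1 narrow stretch, beginning 193 to 198 bases before the start, and Sprr1a had 2 matches, beginning 146 and 116 bases before its start. A TATA box stood in the same 6 windows, against 13.6% of all windows, and it began 29 bases before the RefSeq start in each of those 5 Sprr2 genes. The annotations differ for Sprr2b: the bases before its RefSeq start end at chr3:92316704, while GENCODE starts the gene at chr3:92316620. Its TATA box thus lies after the GENCODE start. The windows are not independent, since those of the 5 Sprr2 genes share 59.4% to 88.7% of the alignment, gaps counted as differences, and those of Sprr2a1 and Sprr2a2 are identical over 300 bases.

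The estrogen response element (GGTCA and TGACC with 3 bases between) stood in 0 of the 9 windows and in 0.1% of all windows. The half-site AGGTCA, which COUP-TF and estrogen receptors can bind, stood in 1 member window, that of Sprr2f, from 219 to 214 bases before the start, and in 16.3% of all windows. The Krüppel-like factor box CACCC stood in 4 of 9 member windows and 57.5% of all, with 1 box of Sprr1a overlapping its AP-1 match. The interferon response motif (TTTC and TTTC with NN between) stood in 0 of 9 and 3.4% of all. The letters of a match were all that was searched, and no binding was measured. Sprr2h, at 0 in all 8 libraries, had its TATA box at the same place as Sprr2f and its AP-1 match 1 base farther from the start.

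**Figure D1:**
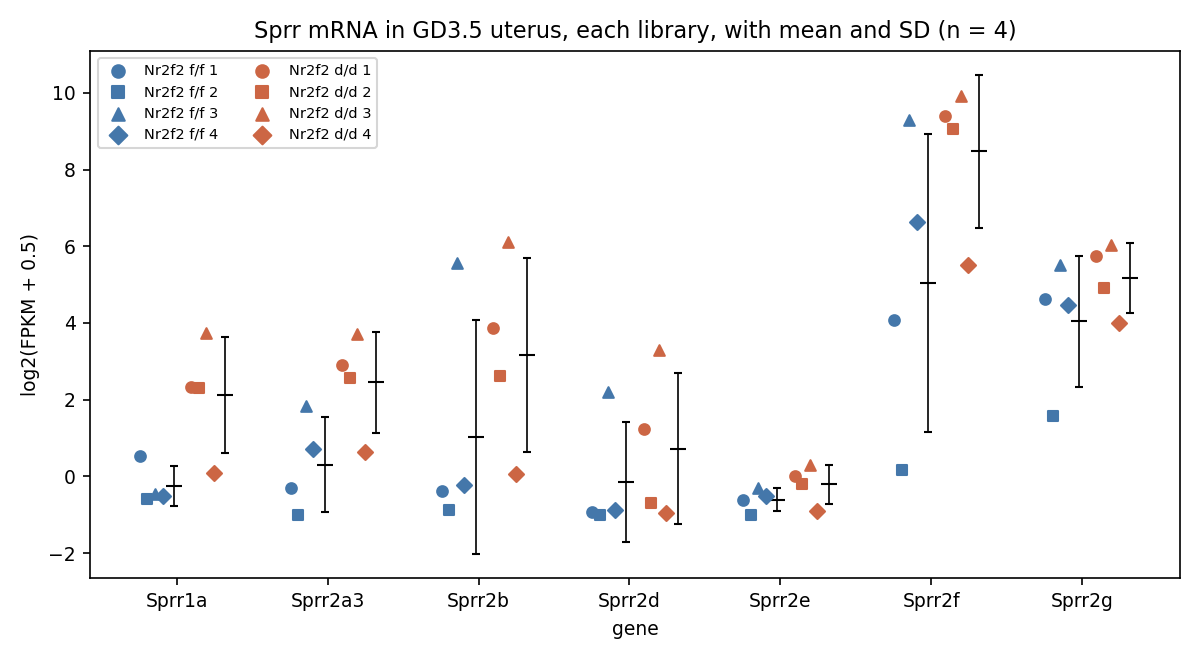
Levels of the 7 Sprr genes above 0 in each library, as log2(FPKM + 0.5), with blue marks for Nr2f2 f/f, red marks for Nr2f2 d/d, a mark shape for each replicate number, and the mean and SD of the 4 libraries as a black bar. Nr2f2 d/d replicate 3 was the highest library for the 7 genes and Nr2f2 f/f replicate 2 had their lowest values, which for Sprr2d and Sprr2e lie under 3 fragments with those of other libraries.

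Sprr2f was the most abundant member, at 16.4, 0.613, 631 and 98.3 FPKM in Nr2f2 f/f replicates 1 to 4 and at 669, 533, 968 and 45.3 FPKM in Nr2f2 d/d replicates 1 to 4. Nr2f2 d/d replicates 1, 2 and 3 and Nr2f2 f/f replicate 3 were high, the other 4 libraries were low, and the groups overlapped. The levels spanned 1580-fold, from about 23.0 fragments in the lowest library to about 54735 in the highest. The means were 187 ± 300 FPKM in Nr2f2 f/f and 554 ± 385 FPKM in Nr2f2 d/d (SD, n = 4 each). The difference of 3.43 ± 1.87 (SE) on the log2(FPKM + 0.5) scale, a fold of 10.8 with a 95% interval from 0.547 to 212, did not pass the test (adjusted p = 0.330, limma). In the ranking of all genes of a library by FPKM, Sprr2f stood at place 33 in Nr2f2 d/d replicate 3 and at place 13914 in Nr2f2 f/f replicate 2.

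Sprr1a encodes an envelope precursor of the other branch of the family. Its level was 0.941, 0.164, 0.227 and 0.206 FPKM in Nr2f2 f/f and 4.57, 4.42, 12.9 and 0.571 FPKM in Nr2f2 d/d. Nr2f2 d/d replicates 1, 2 and 3 were above every Nr2f2 f/f library, and Nr2f2 d/d replicate 4 was below Nr2f2 f/f replicate 1. The means were 0.385 ± 0.372 and 5.61 ± 5.18 FPKM (SD, n = 4 each). The log2 difference of 2.38 ± 0.69 (SE), a fold of 5.19 with an interval from 1.74 to 15.5, had an unadjusted p of 0.00817 and an adjusted p of 0.105 (limma). Without Nr2f2 d/d replicate 4 the adjusted p was 0.0249, with a log2 difference of 3.05, so that 1 library decided this call. The two-sided exact permutation p was 0.0571, where the smallest that 4 against 4 libraries allow is 0.0286.

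Sprr2a3 was at 0.316, 0, 3.04 and 1.13 FPKM in Nr2f2 f/f and at 6.94, 5.40, 12.6 and 1.05 FPKM in Nr2f2 d/d. As with Sprr1a, Nr2f2 d/d replicates 1, 2 and 3 were above all Nr2f2 f/f libraries, while replicate 4 fell among them. The log2 difference was 2.14 ± 0.77 (SE), with an unadjusted p of 0.0233 and an adjusted p of 0.172 (limma). The unadjusted p was above 0.05, from 0.0575 to 0.0630, when Nr2f2 f/f replicate 1 or 2 or Nr2f2 d/d replicate 1 or 3 was left out. Sprr2a1, Sprr2a2 and Sprr2a3 are near-identical copies: 5.8%, 5.4% and 53.0% of the 76-base stretches of their exons occur in no other annotated transcript. How fragments that match several places were counted is not given in the sources used here, so the 0 of Sprr2a1 and Sprr2a2 in all 8 libraries and the level of Sprr2a3 are uncertain.

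Sprr2b set 1 Nr2f2 f/f library apart from the other 3, at 0.272, 0.046, 46.9 and 0.349 FPKM, against 14.1, 5.63, 68.6 and 0.536 FPKM in Nr2f2 d/d. Nr2f2 f/f replicate 3 was above 3 of the 4 Nr2f2 d/d libraries, and the other 3 Nr2f2 f/f libraries were below all of Nr2f2 d/d. The log2 difference of 2.14 ± 1.69 (SE) did not pass the test (adjusted p = 0.498, limma). Without Nr2f2 f/f replicate 3, Sprr2b had a log2 difference of 3.66 with an unadjusted p of 0.0214 and Sprr2f one of 4.85 with an unadjusted p of 0.0201, and the adjusted p-values were 0.183 and 0.177 (limma). Other libraries moved both values the other way: leaving out Nr2f2 f/f replicate 2, the library that stood apart, gave 1.80 for Sprr2f and 1.51 for Sprr2b, and leaving out Nr2f2 d/d replicate 3 gave 2.95 and 1.16.

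Sprr2d was at 0.023, 0, 4.11 and 0.048 FPKM in Nr2f2 f/f and at 1.85, 0.123, 9.35 and 0.016 FPKM in Nr2f2 d/d. Only Nr2f2 d/d replicates 1 and 3 and Nr2f2 f/f replicate 3 were above 1 FPKM. The log2 difference was 0.87 ± 1.08 (SE, adjusted p = 0.679, limma), and it was 0.016 when Nr2f2 d/d replicate 3 was left out. Sprr2e, at 0.147, 0, 0.317 and 0.201 FPKM in Nr2f2 f/f and 0.5, 0.368, 0.717 and 0.034 FPKM in Nr2f2 d/d, had a mean below 0.5 FPKM and was not in the fit. Nr2f2 d/d replicates 1, 2 and 3 were the highest libraries for Sprr2e and Nr2f2 d/d replicate 4 was below 3 of the Nr2f2 f/f libraries (two-sided exact permutation p = 0.2000). Its highest level stood on about 43.0 fragments.

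Sprr2g, the second member by mean level, spanned 25.9-fold from lowest to highest library. It was at 24.2, 2.49, 45.5 and 21.5 FPKM in Nr2f2 f/f and at 53.2, 29.8, 64.7 and 15.4 FPKM in Nr2f2 d/d. The ranges overlapped widely, with Nr2f2 f/f replicate 3 above Nr2f2 d/d replicate 2. The log2 difference was 1.13 ± 0.83 (SE), with an interval from -0.78 to 3.03 (adjusted p = 0.465, limma), and 0.30 when Nr2f2 f/f replicate 2 was left out. Of the 6 other Sprr symbols in the table, Sprr1b, Sprr2k and Sprr4 were at 0 in all libraries, and Sprr2i, Sprr2j-ps and Sprr3 had at most 4.0 fragments in any library. Sprr2h was also at 0 throughout, and all of its 76-base stretches are unique to it.

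All 6 tested members had a higher mean in Nr2f2 d/d. Their median log2 difference was 2.14, against -0.02 over the 14323 genes tested. Sprr1a, at a mean of 0.385 FPKM in Nr2f2 f/f, passed the filter only through Nr2f2 d/d, so the count of 6 is a description. Without the filter, 7 of the 7 members above 0 had the same sign. By limma, 0 of the 6 passed an adjusted p of 0.05, a threshold passed by 2.62% of all genes tested (1.09% higher and 1.53% lower in Nr2f2 d/d). At an unadjusted p of 0.05 and a fold change of at least 1.4, 2 of the 6 passed, Sprr1a and Sprr2a3, both higher, beside 8.8% of all genes (4.7% higher and 4.1% lower). The 2 groups of libraries did not overlap for 0 of the 6 members and for 15.4% of all genes, with Nr2f2 d/d above in 5.49%. These members lie in 1 gene cluster and varied together across the libraries, so their shared sign is not 6 separate results. In whole uterus, fewer cells of a type and less RNA per cell cannot be told apart.

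**Figure D2:**
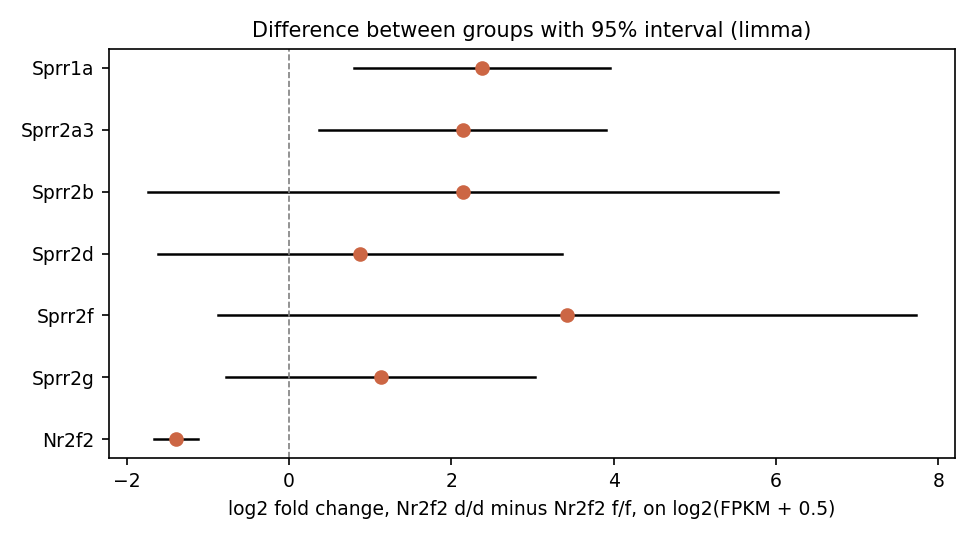
Log2 fold change of Nr2f2 d/d over Nr2f2 f/f for the 6 tested Sprr genes and for Nr2f2, on log2(FPKM + 0.5), with the 95% interval from limma as a line. The intervals of Sprr1a and Sprr2a3 lie above 0 before adjustment, those of the other 4 Sprr genes include 0, and that of Nr2f2 lies below 0.

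The members varied widely between mice of 1 genotype. The SD within groups of log2(FPKM + 0.5) was 3.10 for Sprr2f, 2.80 for Sprr2b, 1.78 for Sprr2d, 1.37 for Sprr2g, 1.27 for Sprr2a3 and 1.13 for Sprr1a, against a median of 0.181 over all genes tested. Among the 14323 genes, 2 had a larger spread than Sprr2f, the implantation serine proteases Prss29 (3.82) and Prss28 (3.38), named after the ranking was seen. Sprr2b was the 6th of the ranking, and 155 genes were ahead of Sprr1a, the least variable of the 6.

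**Figure D3:**
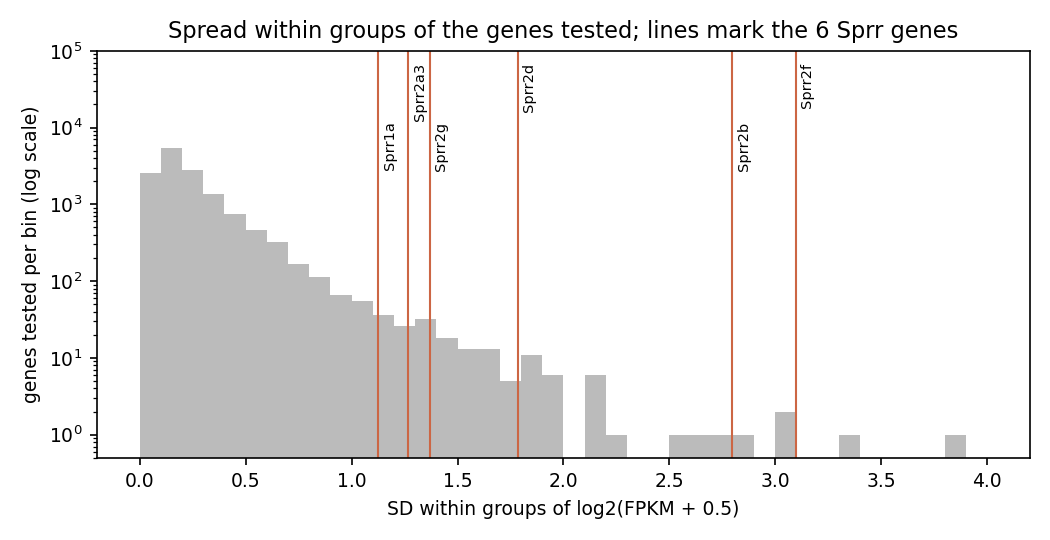
Histogram of the SD within groups of log2(FPKM + 0.5) for the genes tested, with a log scale for the number of genes and a red line for each of the 6 tested Sprr genes. The Sprr genes lie in the right tail, from 1.13 to 3.10, where the median gene is at 0.181.

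The libraries took nearly the same order for each member. Nr2f2 d/d replicate 3 was the highest for 7 of the 7 genes above 0, and Nr2f2 f/f replicate 2 had the lowest value for 7 of 7. For Sprr2d and Sprr2e this lowest place rests on 0 against 1.0 and 2.0 fragments, under a floor of 3, so it cannot be told for those 2. Nr2f2 d/d replicates 1, 2 and 3 were among the 4 highest libraries for 7 of 7, and Nr2f2 f/f replicate 3 for 6 of 7, with Sprr1a as the exception. Nr2f2 d/d replicate 4 and Nr2f2 f/f replicate 4 were among the 4 lowest for 7 of 7. Nr2f2 d/d replicate 4 thus had Sprr levels in the range of Nr2f2 f/f, while its Nr2f2 level of 9.74 FPKM was close to those of Nr2f2 d/d replicates 1 and 2. By depth, Nr2f2 d/d replicate 3 had the most fragments (92800000) and Nr2f2 f/f replicates 2 and 4 the fewest (61550000 each), while Nr2f2 d/d replicate 4, low in the Sprr genes, had 90650000 and Nr2f2 d/d replicate 1, high in them, had 61750000. The part of depth was not tested.

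The ratio of Sprr1a to Sprr2f had a wider range in the Nr2f2 f/f than in the Nr2f2 d/d libraries. In Nr2f2 f/f replicate 3, where Sprr2f was at 631 FPKM, Sprr1a was at 0.227 FPKM, a ratio of Sprr1a to Sprr2f of 0.00036. In the 4 Nr2f2 d/d libraries this ratio was 0.00683 to 0.0133, also in replicate 4, where both genes were low. In Nr2f2 f/f replicates 1, 2 and 4 it was 0.0574, 0.268 and 0.0021. The ratios of the genotypes overlapped, and the ratio of Nr2f2 f/f replicate 2 rests on few fragments, about 8.1 for Sprr1a and 23.0 for Sprr2f. Those of Nr2f2 f/f replicates 3 and 4 also rest on few fragments of Sprr1a, about 14.3 and 10.2.

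Summed over the 10 members, the level was 42.3, 3.32, 731 and 122 FPKM in Nr2f2 f/f and 751, 578, 1137 and 62.9 FPKM in Nr2f2 d/d. This was 0.0010% to 0.324% of the summed FPKM of a library. Sprr2f made up 71.97% to 92.1% of the sum in the Nr2f2 d/d libraries and in Nr2f2 f/f replicates 3 and 4 it made up 86.3% and 80.8%. In Nr2f2 f/f replicates 1 and 2, where the sum was lowest, Sprr2g led instead, with 57.2% and 75.2% of it. Sprr2b reached 6.41% of the sum in Nr2f2 f/f replicate 3 and 6.04% in Nr2f2 d/d replicate 3, and at most 1.88% in the other libraries.

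**Figure D4:**
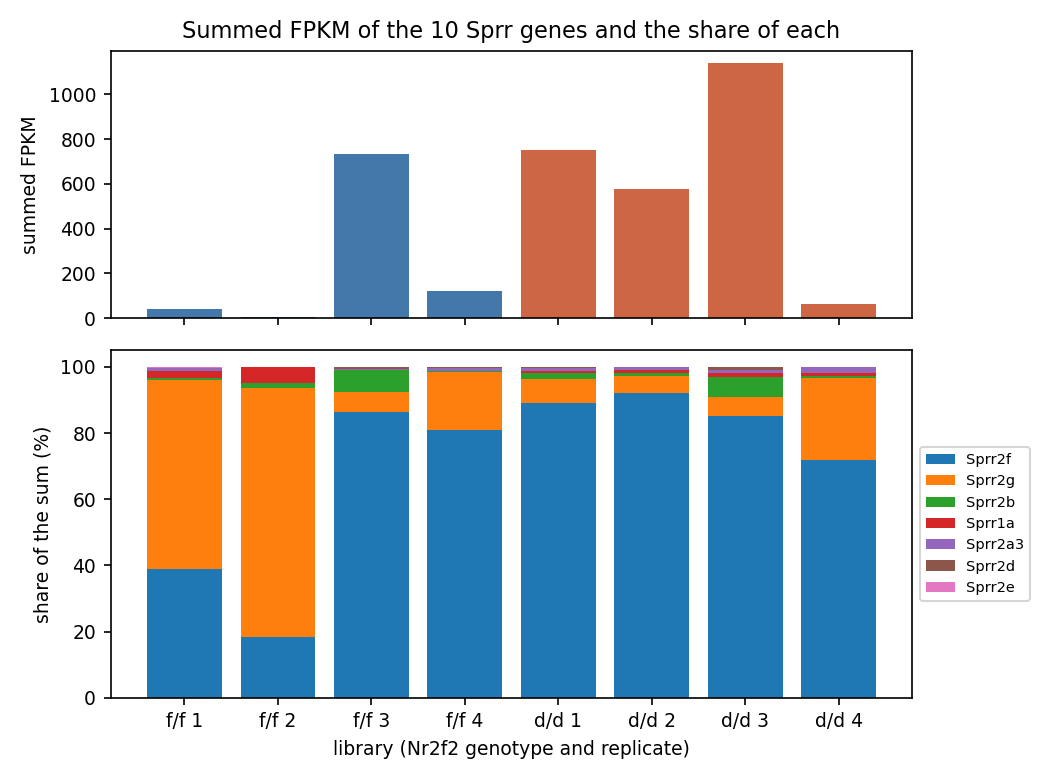
Summed FPKM of the 10 Sprr genes in each library (upper bars, blue for Nr2f2 f/f and red for Nr2f2 d/d) and the share of each gene in that sum in percent (lower bars). Sprr2f holds most of the sum in 6 of the 8 libraries, and Sprr2g in Nr2f2 f/f replicates 1 and 2.

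By mean FPKM over the 8 libraries the order was Sprr2f (370), Sprr2g (32.1), Sprr2b (17.1), Sprr2a3 (3.81), Sprr1a (2.99), Sprr2d (1.94) and Sprr2e (0.286). Sprr2f was above Sprr2g in 6 of 8 libraries, with a mean log2 difference of 2.15 ± 2.15 (SD over libraries). The step from Sprr2g to Sprr2b, 2.52 ± 1.95, was larger than its SD, and Sprr2g was the higher in 6 of 8. The steps from Sprr2b to Sprr2a3 (0.71 ± 1.60), Sprr2a3 to Sprr1a (0.45 ± 0.97), Sprr1a to Sprr2d (0.64 ± 1.59) and Sprr2d to Sprr2e (0.69 ± 1.39) were smaller than their SD. The first of each pair was the higher in 5, 5, 7 and 3 of the 8 libraries, so the order by mean does not hold in each library, and Sprr2d led Sprr2e only through its few high libraries.

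Over the 8 libraries, the Pearson correlation of log2(FPKM + 0.5) with Sprr2f was 0.934 for Sprr2g, 0.933 for Sprr2a3, 0.873 for Sprr2e, 0.837 for Sprr2b, 0.688 for Sprr2d and 0.627 for Sprr1a, as a description of 8 points that share the genotype difference and library composition. Outside the family, the 5 genes most like Sprr2f among 13206 with a mean of at least 1 FPKM were Vdac2 (0.988), a mitochondrial outer membrane channel, Irak4 (0.987), a kinase of Toll-like receptor signaling, Klhdc7a (0.981), Fem1a (0.981) and Wfdc3 (0.980), a whey acidic protein domain gene. With the group means removed the 5 values were 0.972 to 0.987, and with Nr2f2 f/f replicates 1 and 2 left out, which were farthest from the median of Sprr2f, they were 0.903 to 0.977. A value of at least 0.9 was reached by 191 of the 13206 genes.

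The sizes of change in these 5 genes differed widely. Klhdc7a was at 3.24, 0.427, 7.83 and 4.30 FPKM in Nr2f2 f/f and 11.2, 9.40, 10.7 and 4.09 FPKM in Nr2f2 d/d, and Wfdc3 at 7.74, 5.60, 14.03 and 10.1 against 16.5, 13.5, 16.1 and 8.63 FPKM. For both, the 4 highest libraries were those of Sprr2f, in another order and over a far narrower range. Vdac2 ranged only from 70.03 to 103 FPKM. None of the 5 passed an adjusted p of 0.05 between the genotypes by limma, and Klhdc7a had the smallest p among them, an unadjusted 0.0659.

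In the rest of the epidermal differentiation complex, 57 of 61 listed genes were in the table, 19 were at 0 in all libraries and 13 were tested. Of these 13, 9 were higher in Nr2f2 d/d and 4 lower, the median log2 difference was 0.09, and 0 passed an adjusted p of 0.05 by limma, while 3 higher and 2 lower genes passed an unadjusted p of 0.05 with a fold change of at least 1.4 (4.7% and 4.1% over all genes). Of the 3, S100a14 passed the filter only through Nr2f2 d/d and had to be higher there. S100a8 and S100a9, the subunits of the neutrophil protein calprotectin, had log2 differences of 2.16 and 2.25 (adjusted p = 0.0689 and 0.0912, limma). S100a6 had a difference of -0.88 (adjusted p = 0.0838, limma), and Lor, the envelope protein loricrin, was below 1.1 FPKM throughout, with a difference of -0.40 (adjusted p = 0.133, limma).

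Among genes of cornified envelope assembly outside the complex, 19 of 36 were tested, 16 were higher and 3 lower, with a median of 0.37, and 3 rose by limma, where 1.09% of all genes rose. Scel, 1 of the 3 lower genes, passed the filter only through Nr2f2 f/f. Padi1 and Padi2, enzymes that convert arginine to citrulline in envelope proteins and keratins, rose by 2.34 and 1.86 on the log2 scale (adjusted p = 0.0292 and 0.00711, limma). The desmosomal cadherin Dsc2 rose by 1.21 (adjusted p = 0.0249, limma). Tgm1, the transglutaminase that cross-links SPRR proteins, had a difference of 0.40 (adjusted p = 0.484, limma). The libraries of the genotypes did not overlap, with Nr2f2 d/d above, for Padi1, Padi2, Dsc2 and Cstb (adjusted p = 0.191, limma), as for 5.49% of all genes. Padi1, Padi2 and Dsc2 were picked by their limma result in these same libraries, so their lack of overlap is no separate support. In Nr2f2 d/d replicate 4 they were at 23.7, 42.6 and 7.22 FPKM, which is part of that lack of overlap. The Sprr levels of that library lay within the Nr2f2 f/f range.

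Of 24 genes listed as estrogen-responsive in the uterus, 23 were tested, 19 were higher and 4 lower, with a median of 0.66, and 2 rose by limma (1.09% over all genes). Greb1, a coactivator of the estrogen receptor, rose by 1.52 (adjusted p = 0.0470, limma) and Slc9a3r1, a scaffold of epithelial microvilli, by 0.69 (adjusted p = 0.0149, limma). Inhbb, an activin and inhibin subunit, had a difference of 1.90 (adjusted p = 0.0626, limma). Ltf, Clca1 and Lcn2, secreted or mucosal proteins of the luminal epithelium, were singled out after their values were seen. Ltf (lactoferrin) was at 11.9, 13.6, 407 and 13.9 FPKM in Nr2f2 f/f and 898, 314, 823 and 51.4 FPKM in Nr2f2 d/d. Clca1 was at 0.102, 0.194, 14.8 and 0.216 against 116, 16.99, 207 and 0.795 FPKM. The same 4 libraries that were high in Sprr2f were the highest for both. These genes were picked for that likeness, and over the 23 tested genes of the list the correlation with Sprr2f across the 8 libraries ran from -0.820 for the water channel Aqp8 to 0.937 for Pgr, with 17 above 0 and 6 below. The adjusted p was 0.201 for Ltf and 0.211 for Clca1 (limma). Lcn2, with an adjusted p of 0.331 (limma), also had its highest values in the 4 libraries that were high in Sprr2f. In falling order these were Nr2f2 d/d replicates 3 and 1, Nr2f2 f/f replicate 3 and Nr2f2 d/d replicate 2.

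**Figure D5:**
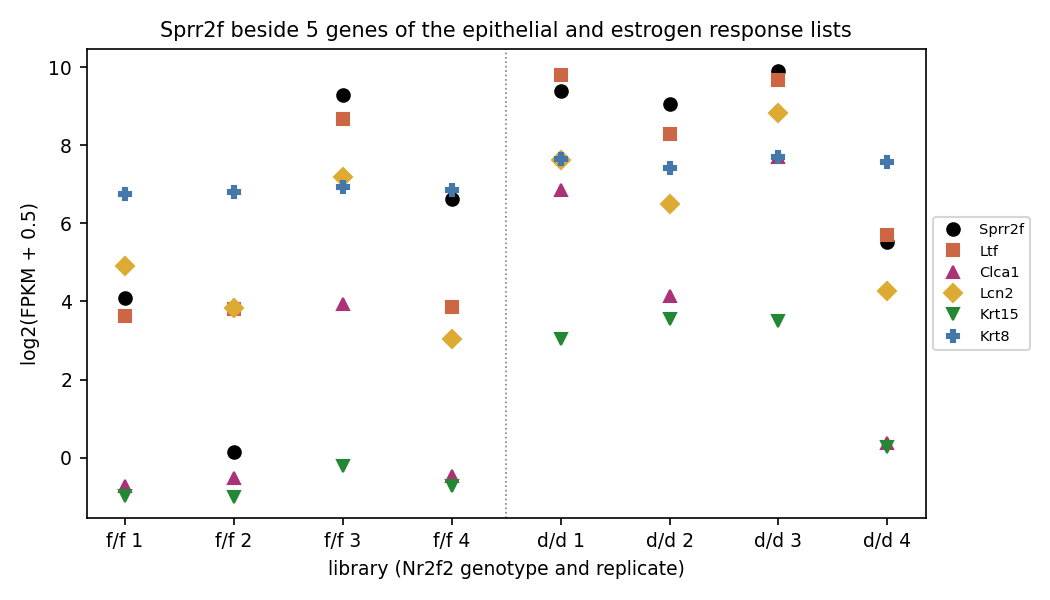
Levels of Sprr2f, of the estrogen-responsive genes Ltf, Clca1 and Lcn2, and of the keratins Krt15 and Krt8 in each of the 8 libraries, as log2(FPKM + 0.5). Sprr2f, Ltf and Clca1 are high in Nr2f2 f/f replicate 3 and in Nr2f2 d/d replicates 1 to 3, whereas Krt8 stays within 108 to 208 FPKM and is higher in all 4 Nr2f2 d/d libraries.

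Of 29 transcription factors with known roles at Sprr promoters or in cornification, 25 were tested, 17 were higher and 8 lower, with a median of 0.28, and 3 rose by limma (1.09% over all genes). Fosb, 1 of the 17, passed the filter only through Nr2f2 d/d. Elf3, an epithelial ETS factor, rose by 1.43 (adjusted p = 0.0415), with 11.9 to 24.8 FPKM in Nr2f2 f/f and 37.2 to 74.8 FPKM in Nr2f2 d/d. The homeobox factor Barx2 rose by 0.94 (adjusted p = 0.0460) and Jund, a subunit of AP-1, by 0.36 (adjusted p = 0.0413). Klf4 had a log2 difference of -0.07, and Esr1, the estrogen receptor, one of 0.31 (adjusted p = 0.151).

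Markers of cell types were compared in the same fit. Of 20 markers of uterine epithelium, 15 were higher and 5 lower with a median of 0.21, and 1 passed (2.62% over all genes), Krt8, which rose by 0.74 (adjusted p = 0.00829, limma). The keratins Krt19 and Krt7 had differences of 1.4 and 0.86 (adjusted p = 0.0559 and 0.189, limma). The summed level of the 20 markers was 1674 to 2128 FPKM in Nr2f2 f/f and 1877 to 2365 FPKM in Nr2f2 d/d. Of the libraries high in Sprr2f, Nr2f2 d/d replicates 1 and 2 had the highest sums (2365 and 2312 FPKM), Nr2f2 d/d replicate 3 had 1877 FPKM and Nr2f2 f/f replicate 3 the lowest, 1674 FPKM. The part of epithelium in the Sprr levels was not tested. Of 17 markers of stratified squamous epithelium, as of cervix and vagina, 0 were at 0 in all libraries, and 7 were tested, of which 6 were higher and 1 lower with a median of 0.94. Krt15, Krt5 and Krt13 passed the filter only through Nr2f2 d/d, so they had to differ in that direction and these counts are no support for it. Krt15 rose by 3.32 (adjusted p = 0.0491, limma), and Krt5 and Krt13 had differences of 2.76 and 1.52 (adjusted p = 0.0529 and 0.0960, limma). The summed squamous level was 8.65, 5.77, 10.2 and 12.5 FPKM in Nr2f2 f/f and 26.3, 26.3, 28.5 and 14.2 FPKM in Nr2f2 d/d, so it was lowest of its group in Nr2f2 d/d replicate 4, as the Sprr genes were. This sum includes Krt5, Krt13 and Krt15, whose direction the filter had fixed. Krt10, the 1 lower tested marker, made up most of it in Nr2f2 f/f replicate 4 (10.3 FPKM) and Nr2f2 d/d replicate 4 (9.47 FPKM). In Nr2f2 f/f replicate 3, which was high in Sprr2f, Krt5, Krt13 and Krt15 were at 0.029, 0.17 and 0.358 FPKM, against 4.81, 1.77 and 7.78 FPKM in Nr2f2 d/d replicate 1. These keratins and Ly6d had their highest Nr2f2 f/f value in replicate 3. Ly6d, at 2.32 FPKM in it, was above Nr2f2 d/d replicates 2, 3 and 4. Krt10, Calml3 and Serpinb5, the other tested markers, had their highest Nr2f2 f/f value in another library. The part of squamous cells in the Sprr levels was not tested.

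For the other cell types, 4 of 10 stromal markers were higher and 6 lower in Nr2f2 d/d, with a median of -0.13, and 2 rose and 1 fell by limma (1.09% and 1.53% over all genes). The summed stromal level was 1138 to 1395 FPKM in Nr2f2 f/f and 1867 to 3540 FPKM in Nr2f2 d/d. Most of this sum was Col1a1, Col1a2 and Dcn, with means of 175, 237 and 410 FPKM in Nr2f2 f/f and 608, 694 and 705 FPKM in Nr2f2 d/d. The 10 smooth muscle markers had a median of 0.14, and 0 passed the adjusted or the unadjusted threshold by limma. Of 8 endothelial markers 7 were lower and 5 fell by limma (1.53% over all genes), with sums of 262.8 to 356.2 FPKM in Nr2f2 f/f and 163.3 to 206.2 FPKM in Nr2f2 d/d. Of the 9 tested of 14 leukocyte markers, which include S100a8 and S100a9, 8 were higher with a median of 0.36, with 0 past the adjusted threshold and 4 past the unadjusted one by limma (2.62% and 8.8% over all genes). Cd3e, 1 of these 4, passed the filter only through Nr2f2 d/d and had to be higher there. Their summed level, most of it the macrophage and neutrophil lysozyme Lyz2, was 130.5, 197.5, 270.0 and 153.9 FPKM in Nr2f2 f/f and 465.4, 320.9, 268.1 and 258.9 FPKM in Nr2f2 d/d. The 4 highest libraries of this sum were those that were high in Sprr2f, by a narrow margin over Nr2f2 d/d replicate 4, and the part of leukocytes in the Sprr levels was not tested.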

How the data were processed

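RNA from whole uterus was measured in 8 libraries, 1 per mouse, 4 per genotype. Groups and replicate numbers are those of the sample titles. The numbers in the column names differ: Nr2f2 f/f replicate 4 is column number 5, and Nr2f2 d/d replicates 2, 3 and 4 are numbers 3, 4 and 5. All 8 value columns were matched to a mouse by name, with 0 left over. The deposited values are FPKM. According to the methods and the submitters' processing notes, the authors removed adaptors from 76-base paired-end reads with cutadapt 1.12, aligned them to mm10 with STAR 2.5.2b and counted fragments per gene with featureCounts 1.5.0-p1. The notes also list Cufflinks 2.0.2. The annotation, strand setting, treatment of fragments with several matches and FPKM formula are not given in the sources used here. The authors tested counts with DESeq2. Counts were not used here, so limma took its place.

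FPKM were taken to log2 after adding 0.5, which understates the change of low genes. The 14323 genes whose mean reached 0.5 FPKM were fitted with limma 3.58.1 in R 4.3.3 (mean-variance trend, two-sided, no covariate), with Benjamini-Hochberg adjustment over all of them. The model was tested on simulated data. Single members were also compared by exact permutation over the 70 arrangements of the libraries. Log2 differences are Nr2f2 d/d minus Nr2f2 f/f.

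Library totals are those at which 100% of 23 to 34 short 1-exon genes per library came out as whole fragments within 0.1, against medians of 14.7% to 17.4% at other totals. For a gene of 1 kb, 3 fragments are then 0.0323 to 0.0487 FPKM, a floor for counting error only. Coordinates and 76-base uniqueness come from GENCODE vM21, and promoters from RefSeq (GRCm38.p6). Python 3.11.15 and matplotlib 3.10.9 were used.

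The members and lists were chosen with earlier results of these data known. The text names all members, other Sprr symbols, Nr2f2, list genes past an adjusted p of 0.05 or among the 3 smallest p, and the 5 genes most like Sprr2f. For markers of stroma, muscle, leukocytes and endothelium, counts and sums are given, with the genes that make up most of the stromal and leukocyte sums. Lor, Lyz2, S100a14, Scel, Fosb, Cd3e, Tgm1, Aqp8, Pgr, Klf4, Esr1, Ltf, Clca1, Lcn2, Prss28 and Prss29 stand outside this rule and were named after their values were seen. So were Krt10, Ly6d, Calml3, Serpinb5, Cstb, Col1a1, Col1a2 and Dcn. S100a8 and S100a9 are in 2 lists, and so are Klf4, Klf5, Pgr, Pkp1 and Trp63. The alternatives were 0.1 and 1 FPKM added, no filter and a filter at 1 FPKM, scaling by median ratios, quantile normalization, no trend, robust estimation, the summed Sprr2a genes, the replicate number as a block, and each library left out in turn. A block by the column numbers was added after the data were seen.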

Additional observations from a re-analysis of the deposited data

Results flagged for a closer look

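In 4 of the 14 groups of 4 libraries examined, 1 per genotype and member above 0, 1 library lay far from the other 3 by Dixon's criterion. Chance meets it in about 1 of 20 groups of normally distributed values. FPKM need not be so distributed, so this rate may not hold here. All 4 were in Nr2f2 f/f. In replicate 3, Sprr2b was at 46.892 FPKM, with a gap to the next library of 0.994 of the range of its group, Sprr2d was at 4.107 FPKM with a gap of 0.988, and Sprr2f was at 631.285 FPKM with a gap of 0.845. In replicate 1, Sprr1a was at 0.941 FPKM, with a gap of 0.919 of the range. The criterion was applied to FPKM. On log2(FPKM + 0.5) the gaps were 0.901 for Sprr2b, 0.959 for Sprr2d and 0.883 for Sprr1a, still past the criterion, and 0.293 for Sprr2f, which did not meet it. The 3 Sprr2 results come from the same library and from neighbouring genes that varied together, so they are not separate events.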

How the results depend on the processing

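Of the 109 alternative values of the single Sprr genes, 108 kept a higher mean in Nr2f2 d/d, the exception being Sprr2d under the block by column number given below. For the adjusted p of 0.05, 1 value changed side, Sprr1a without Nr2f2 d/d replicate 4 (log2 difference 3.05, adjusted p = 0.0249, limma). The sizes depended on single libraries: with a library left out the log2 difference was 1.84 to 3.05 for Sprr1a, 1.71 to 2.75 for Sprr2a3, 1.16 to 3.66 for Sprr2b, 0.016 to 1.66 for Sprr2d, 1.80 to 4.85 for Sprr2f and 0.30 to 1.62 for Sprr2g. The count of members past the adjusted threshold was 0 in the other settings and 0 to 1 with a library left out. The count past the unadjusted threshold, 2 as reported, was 1 to 3 in the other settings and 1 to 4 with a library left out: 1 when Nr2f2 f/f replicate 1 or 2 or Nr2f2 d/d replicate 1 or 3 was missing, and 4 without Nr2f2 f/f replicate 3. Over all genes, the adjusted count of 375 was 42 to 347 with a library left out, lowest without Nr2f2 d/d replicate 2. Leaving out Nr2f2 f/f replicate 1, 3 or 4 gave 62, 210 and 98 calls, and leaving out Nr2f2 d/d replicate 1 gave 56. Leaving out Nr2f2 f/f replicate 2 or Nr2f2 d/d replicate 3 or 4 gave 347, 278 and 326. All these fits had the same number of samples, fewer than the main fit, so the count depended on which library was missing. Calls were 156 higher and 219 lower as reported, and 192 and 172 under median-ratio scaling.

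Mice with the same number in the titles did not deviate together (correlations of -0.204, -0.172, 0.045 and -0.04 for numbers 1 to 4). The column names share the numbers 1, 3 and 5, with correlations of -0.204, 0.149 and -0.04. By neither numbering did all pairs deviate together, so the numbers were not taken to pair samples. With the replicate block the adjusted count over all genes was 1, which was no Sprr gene, and the unadjusted count of members was 3. With the replicate block by column number, chosen after seeing the data, which compares 3 pairs and leaves Nr2f2 f/f replicate 2 and Nr2f2 d/d replicate 3 without a partner, the counts were 0 over all genes (limma, 1321 past the unadjusted threshold) and 1 member past the unadjusted threshold. Sprr2d had a log2 difference of -0.2677 there, Sprr2f 1.32, Sprr2g 0.02, Sprr2b 0.53, Sprr2a3 1.28 and Sprr1a 1.72. Summing the Sprr2a genes changed nothing, since Sprr2a1 and Sprr2a2 were at 0. Sprr2e had a value only without a filter (0.40, adjusted p = 0.454, limma). Sprr2d had at most 2.0 fragments in 4 of the 8 libraries, and there its level was not measurable beyond the floor of 3 fragments.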
